A study of Mus musculus with 36 samples.

Results

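The 30 genes described here are p53 and its transcriptional targets, chosen by symbol from a list of 30 names. The rule used no level or fold, but the list was chosen with earlier results of these data known. All 30 are among the 21761 genes of the files, and all 30 were tested. By role, 4 were grouped as regulators of p53 (p53 itself included), 7 as growth arrest, 13 as apoptosis and 6 as repair and metabolic protection. They were measured by RNA sequencing of motor neurons derived from mouse embryonic stem cells, in 6 groups of 6 libraries.

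The cells of all 6 groups came from embryonic stem cells of Hlxb9-GFP1Tmj mice, whose eGFP, with or without the surface protein CD2, is under the promoter of the motor neuron gene Mnx1 (HB9). CD2-bearing cells were taken on a magnetic column and plated in medium conditioned by astrocytes, which came from newborn pups' spinal cord or cortex. The mSOD1 groups received medium of astrocytes that over-express G93A mutant SOD1, an allele of familial amyotrophic lateral sclerosis, the wtSOD1 groups medium of astrocytes that over-express wild-type SOD1, and the NTg groups medium of non-transgenic astrocytes. RNA was taken after 1 or 3 days, and every medium had been given glucose, antibiotics, GDNF, BDNF and CNTF. The labels give the SOD1 genotype for the astrocytes alone. Whether spinal cord or cortex was the source is not given per library. Libraries are numbered by experiment from 1 to 6. The labels do not say whether an experiment number stands for a separate differentiation, so p-values measure the spread between these libraries.

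The transcription factor p53 is made continuously and is normally destroyed by its own target Mdm2, a ubiquitin ligase. DNA damage and other stresses stabilise it, and it then binds a sequence of paired decamers near genes that stop the cell cycle, repair DNA or start apoptosis. In neurons, which no longer divide, p53 is best known for its part in cell death during development and after injury, through pro-apoptotic targets such as PUMA and NOXA.

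Library totals ran from 4386946 to 88931151 reads. On day 1, NTg replicate 6, the smallest library, and wtSOD1 replicate 4, the largest, stood apart. Despite its size, wtSOD1 replicate 4 had a read in only 16829 genes, where all libraries ran from 16465 to 18506. In NTg replicate 6 the summed microglia markers reached 47.2 CPM (counts scaled to a common library size) and the summed oligodendrocyte markers 211.9 CPM, the highest of all libraries. Motor neuron markers (Mnx1, Isl1, Isl2, Lhx3, Chat, Slc18a3, Slc5a7 and Prph) were detected in every library. Astrocyte markers were mixed: over the 18 day 3 libraries Slc1a3, Aldh1l1, Gja1, Aldoc and Slc1a2 had medians of 195, 123, 88.1, 51.3 and 36.4 CPM, while Aqp4, Gfap and S100b had medians of 2.44, 0.557 and 0.517 CPM. Of the 8 microglia markers, P2ry12 lay between 8.51 and 18.2 CPM in every library. The other 7 had medians below 1 CPM on each day, and Trem2 was at 0 in all libraries. Bulk libraries cannot tell fewer cells of a type from less RNA per cell, and this holds for every result below.

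Which p53 targets differed on day 3 from day 1? Most p53 targets were higher on day 3, in each of the 3 media. Of the 30 genes, 20 were higher and 4 lower in mSOD1 medium, 23 higher and 5 lower in wtSOD1 medium, and 22 higher and 4 lower in NTg medium (edgeR quasi-likelihood test, adjusted p below 0.05). Much of the transcriptome moved as well. Of all 15207 genes tested, 28.4% were higher and 28.0% lower in mSOD1 medium, 31.1% and 30.7% in wtSOD1 medium, and 30.8% and 30.8% in NTg medium. The median log2 difference of the 30 genes was 0.44 in mSOD1, 0.56 in wtSOD1 and 0.52 in NTg medium, while that of all genes lay between -0.01 and 0. The same 20 genes were higher in all 3 media, and 10 of these by more than 2-fold in each. Rprm, Plk3, Plk2 and Xpc were lower in all 3 media. The same counts over the 3 media were not made for all genes. Leaving out both libraries that stood apart gave 21 higher and 4 lower in mSOD1, 22 and 5 in wtSOD1, and 22 and 4 in NTg medium.

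**Figure D1:**
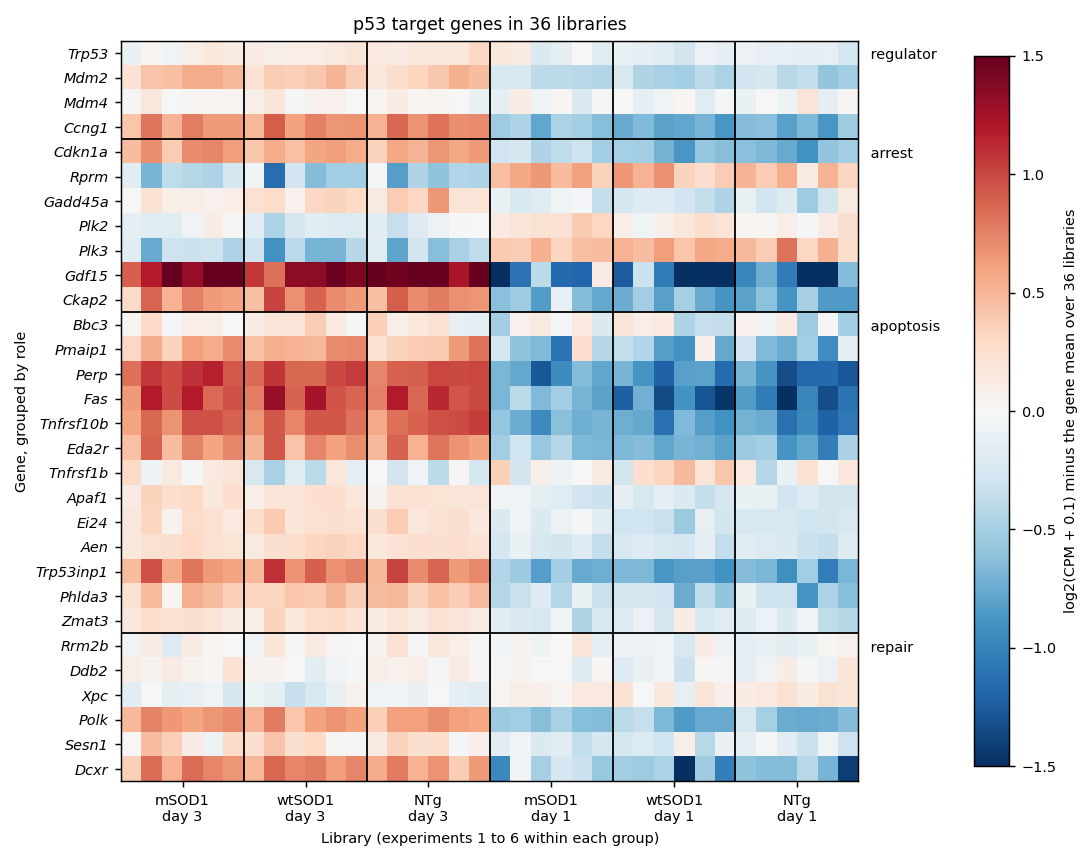
Level of the 30 p53 genes (rows, by role) in 36 libraries (columns, experiments 1 to 6 within each group), as log2(CPM + 0.1) minus the gene's mean, in red above and in blue below it. Most rows are red in the day 3 groups on the left and blue in the day 1 groups on the right, and Rprm, Plk2, Plk3 and Xpc run the other way.

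Markers of several cell types also differed between days, and their part in these results was not tested. All 8 motor neuron markers were lower on day 3 in each medium. Their summed level ran over 767 to 1082 CPM in mSOD1, 534 to 918 CPM in wtSOD1 and 631 to 1043 CPM in NTg medium on day 3. On day 1 it ran over 1441 to 1852, 1474 to 1739.5 and 1459 to 1780.0 CPM in the same media. All 7 tested mesenchyme markers, 6 of 8 astrocyte markers, and 6 or 7 of 8 neural progenitor markers were higher on day 3. In each medium 1 astrocyte marker and 1 neural progenitor marker were lower. Slc1a2 and Hes5 had medians of 65.0 and 3.47 CPM on day 1 and 36.4 and 1.60 CPM on day 3. The neural progenitor sum ran over 3852 to 4722 CPM in mSOD1, 4156 to 4836 CPM in wtSOD1 and 4231 to 4905 CPM in NTg medium on day 3, against 2127 to 2859, 2193 to 2722 and 2250.1 to 2751 CPM on day 1. The astrocyte sum ran over 444 to 583, 468 to 611 and 479 to 653 CPM on day 3 and 162 to 211, 172 to 217 and 158 to 235 CPM on day 1, in the same order of media. Aldh1l1 and Slc1a3 had medians of 13.3 and 47.3 CPM on day 1, and Gfap of 0 CPM. The mesenchyme sum ran over 146 to 218, 171 to 246 and 195 to 258 CPM on day 3 and 65.3 to 96.5, 68.2 to 114 and 57.9 to 119.8 CPM on day 1.

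Among the regulators, Mdm2 and Ccng1 rose in every medium, while p53's own mRNA differed by at most 0.32 on the log2 scale. Ccng1 encodes cyclin G1, which acts back on p53 through Mdm2 and the phosphatase PP2A. Its lowest, median and highest day 3 levels were 888, 1038 and 1165 CPM in mSOD1 medium, 943, 1059.8 and 1256 CPM in wtSOD1 medium and 957, 1090.4 and 1211 CPM in NTg medium. On day 1 they were 390.3, 464 and 486 CPM in mSOD1 medium, 365, 393 and 421 CPM in wtSOD1 medium and 365, 422 and 462 CPM in NTg medium. No day 3 library overlapped the day 1 libraries of its medium. The log2 differences were 1.20 ± 0.07 in mSOD1, 1.45 ± 0.07 in wtSOD1 and 1.41 ± 0.07 in NTg medium (estimate ± SE, n = 6 libraries per group, adjusted p = 1.24e-17, 4.08e-20 and 8.52e-20, higher in 6 of 6 same-numbered pairs of each medium). Where groups do not overlap, all same-numbered pairs must go the same way, so counts of pairs add nothing there. Of the 30 genes, 23 in mSOD1, 22 in wtSOD1 and 22 in NTg medium did not overlap between days. The same count was not made over all genes, so the share to set beside it is not known. Per kilobase of exon, Ccng1 had the highest level of the 30 in every group. Its group median on day 3 was 296 CPM per kb in mSOD1 medium and 310.5 CPM per kb in NTg medium.

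Mdm2, the ligase that destroys p53, rose by 0.81, 0.80 and 0.76 on the log2 scale in mSOD1, wtSOD1 and NTg medium (adjusted p = 1.32e-13, 8.15e-14 and 4.63e-13), with no overlap between days in any medium. Trp53 lay at 57.1, 63.8 and 68.2 CPM in mSOD1 medium, 64.1, 65.7 and 69.0 CPM in wtSOD1 medium and 66.5, 68.2 and 75.8 CPM in NTg medium on day 3, in the order lowest, median and highest. On day 1 it lay at 52.2, 58.0 and 68.0 CPM in mSOD1 medium, 50.3, 55.4 and 57.5 CPM in wtSOD1 medium and 50.9, 56.0 and 57.3 CPM in NTg medium. The days overlapped in mSOD1 medium and did not in the other media. Trp53 differed by 0.08 ± 0.05 in mSOD1, 0.27 ± 0.05 in wtSOD1 and 0.32 ± 0.05 in NTg medium (adjusted p = 0.225, 3.01e-05 and 3.67e-06), so that it passed the test in wtSOD1 and NTg medium. In mSOD1 medium it passed without experiment 1 (0.15, adjusted p = 0.0262). Mdm4, the Mdm2 relative that holds p53 inactive, was nearly even, with log2 differences of 0.10, 0.12 and 0.03 in mSOD1, wtSOD1 and NTg medium. It passed in wtSOD1 medium (adjusted p = 0.0397), where leaving out any of 7 single libraries (day 1 replicates 2, 3 and 5, day 3 replicates 1, 2, 4 and 5) took the adjusted p to between 0.055 and 0.135. In mSOD1 medium Mdm4 passed without day 1 replicate 2 (0.13, adjusted p = 0.0371).

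The 7 genes grouped as arrest targets split, with 4 higher and 3 lower in every medium. Ckap2, a protein of mitosis, was counted among the 4. Cdkn1a encodes p21, the inhibitor of cyclin-dependent kinases through which p53 stops cells in G1. On day 3 its lowest, median and highest levels were 171, 208 and 218 CPM in mSOD1 medium, 174, 194 and 204 CPM in wtSOD1 medium and 167, 196 and 207 CPM in NTg medium. On day 1 they were 92.5, 103 and 109 CPM in mSOD1 medium, 71.9, 86.2 and 92.9 CPM in wtSOD1 medium and 69.7, 83.8 and 91.5 CPM in NTg medium. The day 3 libraries lay wholly above the day 1 libraries in each medium, at log2 differences of 0.97 ± 0.07 in mSOD1, 1.17 ± 0.07 in wtSOD1 and 1.23 ± 0.07 in NTg medium (adjusted p = 1.66e-15, 5.66e-18 and 1.67e-18, 6 of 6 pairs in each).

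The promoter window of Cdkn1a is shown because it is the only window among the 22 genes with a promoter entry found to hold a full p53 site. It is the upstream start in RefSeq (GRCm38.p6, chr17:29090729-29091028, plus strand), 250 bases before to 50 bases after the annotated start, and capitals mark the matches to the p53 decamer and to the pair of CATG cores.
Cdkn1a: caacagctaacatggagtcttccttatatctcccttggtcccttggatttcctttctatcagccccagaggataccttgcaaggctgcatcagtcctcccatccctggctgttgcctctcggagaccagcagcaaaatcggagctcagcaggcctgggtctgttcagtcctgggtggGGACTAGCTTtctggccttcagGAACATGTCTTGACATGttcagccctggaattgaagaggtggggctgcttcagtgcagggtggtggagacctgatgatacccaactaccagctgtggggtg
A second start of Cdkn1a, at chr17:29093519-29093818, held no match. The pair of cores CATGNNNNNNCATG, the same on both strands, lay in this window and in 0.712% of all 32851 promoter windows. A full site by the p53 consensus, 2 decamers spaced by 0 to 13 bases on either strand, lay in it and in 0.0731% of windows. These motifs overlap here.

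Gdf15, a secreted stress cytokine, had the largest difference of the 30 genes but the lowest day 1 level per kilobase of exon. On day 3 it stood at 2.26, 3.30 and 4.65 CPM in mSOD1 medium, 2.15, 3.12 and 3.43 CPM in wtSOD1 medium and 2.86, 3.73 and 4.24 CPM in NTg medium (lowest, median, highest). On day 1 it stood at 0.172, 0.477 and 1.29 CPM in mSOD1 medium, 0.0845, 0.315 and 0.913 CPM in wtSOD1 medium and 0, 0.531 and 0.707 CPM in NTg medium, so that its fold rests on few reads. The days did not overlap in any medium, and the log2 differences were 2.31 ± 0.35 in mSOD1, 3.19 ± 0.38 in wtSOD1 and 3.07 ± 0.37 in NTg medium (adjusted p = 4.48e-07, 1.92e-09 and 2.36e-09). Ckap2, a microtubule-binding protein of mitosis, rose by 1.21, 1.43 and 1.45 in mSOD1, wtSOD1 and NTg medium, also with no overlap. Gadd45a, a growth arrest and DNA damage protein, rose by 0.25, 0.54 and 0.54 (adjusted p = 0.0101, 3.52e-07 and 4.85e-07), and in mSOD1 medium missed the threshold without experiment 2 (0.22, adjusted p = 0.061).

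Rprm (Reprimo), which holds cells in G2, went the other way. On day 3 its lowest, median and highest levels were 47.9, 59.1 and 69.8 CPM in mSOD1 medium, 35.4, 54.6 and 75.2 CPM in wtSOD1 medium and 44.0, 56.7 and 77.3 CPM in NTg medium. On day 1 they were 99.5, 113 and 123 CPM in mSOD1 medium, 93, 107 and 126 CPM in wtSOD1 medium and 84.9, 106 and 114 CPM in NTg medium. Every day 3 library lay below every day 1 library of its medium, with log2 differences of -0.92 ± 0.13 in mSOD1, -0.98 ± 0.12 in wtSOD1 and -0.85 ± 0.13 in NTg medium (adjusted p = 1.47e-07, 2.32e-08 and 4.24e-07, lower in 6 of 6 pairs of each medium). Plk3 and Plk2 are polo-like kinases induced by stress. Plk3 fell, with log2 differences of -0.80 ± 0.10 in mSOD1, -1.09 ± 0.10 in wtSOD1 and -0.93 ± 0.10 in NTg medium (adjusted p = 9.8e-09, 2.68e-12 and 1.55e-10, 6 of 6 pairs in each). Its median was 25.5, 21.6 and 23.5 CPM on day 3 and 42.7, 46.3 and 42.9 CPM on day 1 in mSOD1, wtSOD1 and NTg medium. In the GRCm38 annotation Plk3 shares 84 exonic bases with Tctex1d4 on the opposite strand, and how reads in such bases were counted is not known here. Plk2 fell less, with log2 differences of -0.32, -0.36 and -0.21 (adjusted p = 3.7e-05, 2.91e-06 and 0.00292).

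**Figure D2:**
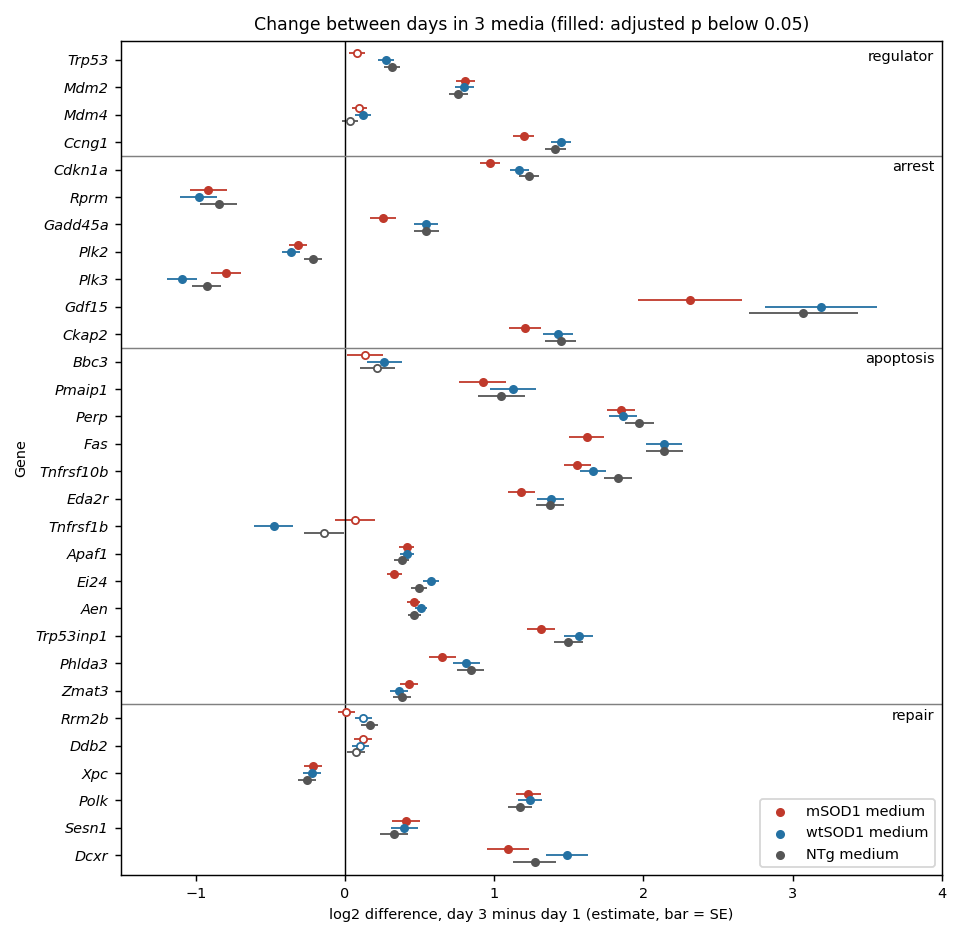
Log2 difference, day 3 minus day 1 (points, with SE bars), of the 30 genes by role in mSOD1 (red), wtSOD1 (blue) and NTg (grey) medium, filled where the adjusted p is below 0.05. Gdf15, Fas, Perp and Tnfrsf10b lie farthest to the right, and Rprm and Plk3 farthest to the left.

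Of the 13 apoptosis targets 11 were higher on day 3 in all 3 media and none was lower in all 3, with a median over members of 0.77 for the log2 difference averaged over media. The same median was 0.45 for arrest (Ckap2 included), 0.50 for the regulators and 0.24 for repair. These counts and medians are descriptions of the groups and were not tested against each other. How many of all genes were higher in all 3 media was not counted. Fas, Perp and Tnfrsf10b had the largest differences. Fas, which signals through caspase 8, had lowest, median and highest levels of 33.5, 42.0 and 48.8 CPM in mSOD1 medium, 36.6, 40.4 and 53.4 CPM in wtSOD1 medium and 36.3, 41.8 and 48.9 CPM in NTg medium on day 3. On day 1 they were 12.2, 13.4 and 16.1 CPM in mSOD1 medium, 7.71, 8.90 and 12.9 CPM in wtSOD1 medium and 6.81, 10.1 and 11.9 CPM in NTg medium. The days were far apart in every medium, with log2 differences of 1.62 ± 0.12 in mSOD1, 2.14 ± 0.12 in wtSOD1 and 2.14 ± 0.13 in NTg medium (adjusted p = 4.21e-14, 1.22e-17 and 3.77e-17, 6 of 6 pairs in each).

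Perp, a tetraspan membrane protein of desmosomes that takes part in p53-dependent death, was at 47.8, 54.6 and 60.7 CPM in mSOD1 medium, 48.7, 51.4 and 56.6 CPM in wtSOD1 medium and 44.9, 51.8 and 54.1 CPM in NTg medium on day 3 (lowest, median, highest). On day 1 it was at 11.1, 15.8 and 17.1 CPM in mSOD1 medium, 11.6, 14.9 and 16.6 CPM in wtSOD1 medium and 10.7, 11.9 and 16.6 CPM in NTg medium. It differed by 1.85 ± 0.09 in mSOD1, 1.86 ± 0.09 in wtSOD1 and 1.97 ± 0.10 in NTg medium (adjusted p = 4.09e-19, 9.63e-20 and 6.07e-20), again without overlap. Tnfrsf10b, the mouse receptor for TRAIL, was at 41.8, 51.0 and 54.5 CPM in mSOD1 medium, 44.2, 51.0 and 53.3 CPM in wtSOD1 medium and 41.3, 52.7 and 57.3 CPM in NTg medium on day 3. On day 1 it was at 14.3, 16.9 and 18.5 CPM in mSOD1 medium, 12.8, 15.9 and 17.6 CPM in wtSOD1 medium and 11.9, 13.7 and 17.0 CPM in NTg medium. The log2 differences were 1.56 ± 0.09 in mSOD1, 1.66 ± 0.09 in wtSOD1 and 1.83 ± 0.09 in NTg medium (adjusted p = 1.42e-17, 6.11e-19 and 1.15e-19), and no library of one day reached the range of the other.

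Trp53inp1, a p53 cofactor in death and autophagy, rose by 1.31, 1.57 and 1.5 on the log2 scale in mSOD1, wtSOD1 and NTg medium, and Eda2r, a receptor for ectodysplasin A2, by 1.18, 1.38 and 1.38. The BH3-only proteins that open the mitochondrial route differed from each other. Pmaip1 (NOXA) rose by 0.92, 1.13 and 1.05 (adjusted p = 4.13e-06, 4.41e-08 and 3.83e-07). Bbc3 (PUMA) differed by 0.13 ± 0.12 in mSOD1, 0.26 ± 0.12 in wtSOD1 and 0.22 ± 0.12 in NTg medium (adjusted p = 0.35, 0.0487 and 0.112), with overlapping days. It passed in wtSOD1 medium only, where it fell short without any of 8 single libraries (day 1 replicates 4, 5 and 6 and day 3 replicates 1 to 5, adjusted p between 0.0517 and 0.171) and without both libraries that stood apart (0.19, adjusted p = 0.159). Smaller rises in all 3 media were seen for Phlda3, which restrains AKT (0.65, 0.81 and 0.84), and for the nuclease Aen (0.46, 0.51 and 0.46). They were also seen for Ei24, a membrane protein of the endoplasmic reticulum (0.33, 0.58 and 0.50), and for Apaf1, the scaffold of the apoptosome (0.41, 0.42 and 0.38). Zmat3, an RNA-binding zinc finger protein, rose by 0.43, 0.36 and 0.38. Tnfrsf1b, the second TNF receptor, was lower in wtSOD1 medium (-0.48 ± 0.13, adjusted p = 0.0016) and gave 0.07 ± 0.13 in mSOD1 and -0.14 ± 0.13 in NTg medium.

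**Figure D3:**
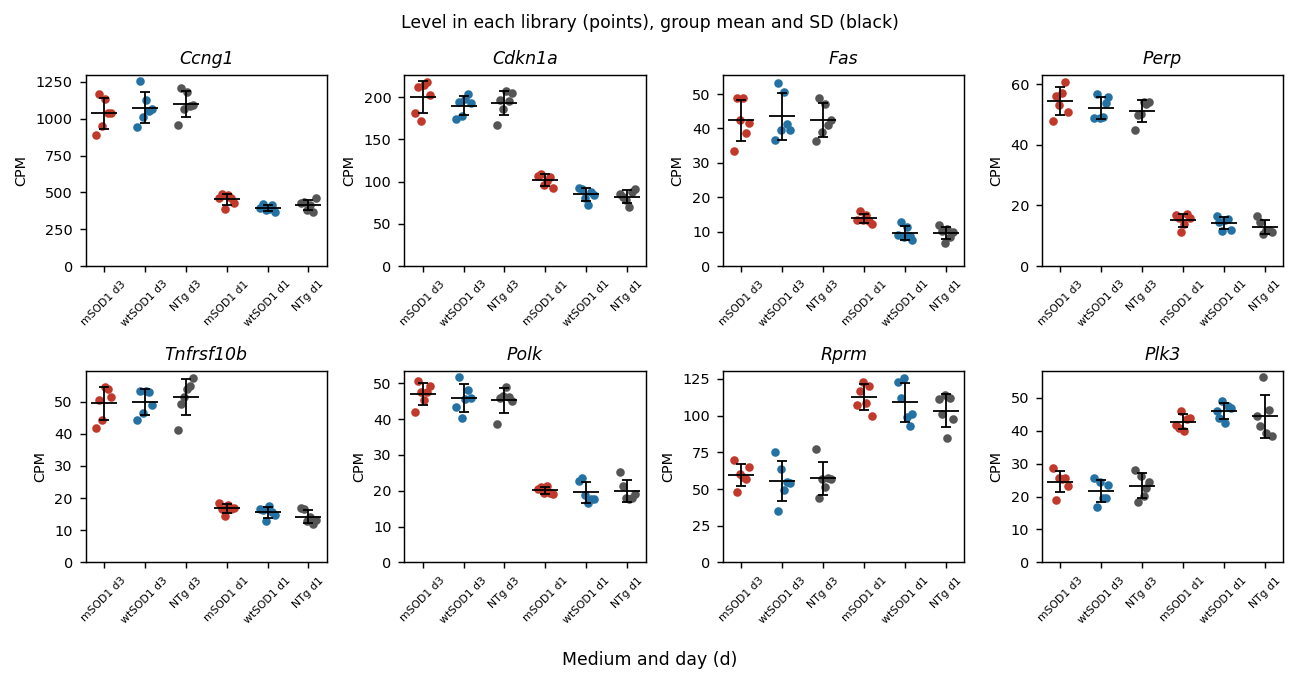
CPM of 8 genes in each library (points), with group mean and SD in black, for mSOD1 (red), wtSOD1 (blue) and NTg (grey) medium on day 3 (d3, left) and day 1 (d1, right). In all 8 panels the days do not overlap within a medium, and Rprm and Plk3 are the lower ones on day 3.

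The repair and protection group was uneven. Polk, a polymerase that copies past DNA lesions, had lowest, median and highest levels of 42.1, 47.5 and 50.6 CPM in mSOD1 medium, 40.2, 45.8 and 51.7 CPM in wtSOD1 medium and 38.7, 46.1 and 49.0 CPM in NTg medium on day 3. On day 1 they were 19.2, 19.9 and 21.4 CPM in mSOD1 medium, 16.6, 18.2 and 23.6 CPM in wtSOD1 medium and 17.8, 18.5 and 25.4 CPM in NTg medium. Its log2 differences were 1.23 ± 0.08 in mSOD1, 1.24 ± 0.08 in wtSOD1 and 1.17 ± 0.08 in NTg medium (adjusted p = 1.66e-15, 4.49e-16 and 3.77e-15, 6 of 6 pairs in each), with no overlap. The other risers are not repair enzymes. Dcxr, a reductase of dicarbonyls and xylulose, rose by 1.09, 1.49 and 1.27 and Sesn1, a sestrin that limits mTORC1 and oxidative stress, by 0.41, 0.40 and 0.33 in mSOD1, wtSOD1 and NTg medium. The damage sensors of nucleotide excision repair did not follow. Xpc fell, with log2 differences of -0.21, -0.22 and -0.25 (adjusted p = 0.0027, 0.0013 and 0.000315), and Ddb2 gave 0.12, 0.10 and 0.07 (adjusted p = 0.08, 0.126 and 0.277), the only gene of the 30 to pass in no medium. In mSOD1 medium Ddb2 passed without both libraries that stood apart (0.12, adjusted p = 0.0452). Ddb2 shares 652 exonic bases with Acp2 on the opposite strand. Rrm2b, the p53-induced ribonucleotide reductase subunit, gave 0.01, 0.12 and 0.16 and passed in NTg medium alone (adjusted p = 0.0125), not without experiment 2 (0.13, adjusted p = 0.0664). In wtSOD1 medium Rrm2b passed with experiment as a block (0.12, adjusted p = 0.0232), and without day 1 replicate 5 (0.16, adjusted p = 0.0138) or day 3 replicate 1 (0.15, adjusted p = 0.029).

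Single p53 decamers were found in 11 of the 30 windows of the 22 genes with a promoter entry, and in 8.36% of all windows. The 11 windows belonged to 10 genes. The decamers are shown for the genes other than Cdkn1a, with 10 bases on each side and the decamer in capitals, 5′ to 3′ on the gene's strand.
Ccng1: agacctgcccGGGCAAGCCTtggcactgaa
Mdm2: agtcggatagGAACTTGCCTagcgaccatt
Trp53: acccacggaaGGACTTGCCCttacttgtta
Ckap2: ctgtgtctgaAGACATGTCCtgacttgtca
Gadd45a: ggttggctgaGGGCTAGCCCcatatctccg
Ei24: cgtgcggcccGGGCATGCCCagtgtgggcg
Aen: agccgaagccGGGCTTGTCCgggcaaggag
Polk: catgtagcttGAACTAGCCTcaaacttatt
Sesn1: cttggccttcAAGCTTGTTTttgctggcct
Fas and Gdf15, among the genes that rose most, held none in these windows, nor did Rprm, Plk2 and Plk3, which were lower on day 3. The CHR element TTTGAA, searched on both strands, lay in 4 of the 30 windows (Aen, Ckap2, Gdf15 and Fas) and in 17.9% of all windows.

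Other genes of the pathway were read from lists that hold none of the 30. Of 20 tested further p53 targets, 11 were higher and 5 lower in mSOD1, 12 and 5 in wtSOD1, and 13 and 5 in NTg medium, with a median log2 difference of 0.48, 0.48 and 0.47. The largest rises were in Ephx1, an epoxide hydrolase (2.89, 3.17 and 3.37 in mSOD1, wtSOD1 and NTg medium), Pltp, a phospholipid carrier (1.43, 1.61 and 1.54), Cd82, a tetraspanin (0.95, 1.3 and 1.40), and Ak1, adenylate kinase (0.82, 1.18 and 1.25). The largest falls were in Trp53inp2 (-0.56, -0.66 and -0.69), Btg1, an antiproliferative protein (-0.46, -0.46 and -0.38), Fdxr, a mitochondrial reductase (-0.41, -0.41 and -0.32), and Tigar, listed in the files as 9630033F20Rik (-0.27, -0.39 and -0.35). Of 20 kinases and regulators upstream of p53, 5 were higher and 6 lower in mSOD1, 6 and 5 in wtSOD1, and 8 and 6 in NTg medium, with medians between -0.01 and 0. Among them Cdkn2a, whose ARF product blocks Mdm2, rose by 1.54, 1.71 and 1.80 and the checkpoint kinase Chek2 by 1.09, 1.25 and 1.1. Ppp1r13b, a p53 cofactor, fell, with -0.46, -0.61 and -0.62, as did the acetyltransferase Kat5, with -0.52, -0.41 and -0.38. The relatives Trp63 and Trp73 were too low to test.

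All 16 cell cycle genes that active p53 and p21 are known to hold down were higher on day 3 in each medium. Their median log2 difference was 0.75 in mSOD1, 1.06 in wtSOD1 and 0.99 in NTg medium. The summed level ran over 1090.0 to 1557 CPM in mSOD1, 1301 to 1898 CPM in wtSOD1 and 1315 to 1811 CPM in NTg medium on day 3. On day 1 it ran over 648 to 906, 728 to 890.3 and 724 to 919.6 CPM. Examples are the mitotic cyclin Ccnb2 (0.91, 1.34 and 1.14), the proliferation marker Mki67 (1.02, 1.23 and 1.11) and the kinase Cdk1 (0.85, 1.18 and 1.21). Cdkn1a and the genes it restrains were both higher on day 3.

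Did mSOD1 medium change the p53 targets on day 1? Cdkn1a was the one gene of the 30 to pass, at 102 ± 6.55 CPM in mSOD1 medium and 82.4 ± 7.70 CPM in NTg medium (mean ± SD, n = 6 each). Over all genes 0.421% passed in this comparison. In mSOD1 medium its lowest, median and highest levels were 92.5, 103 and 109 CPM, and in NTg medium 69.7, 83.8 and 91.5 CPM, so the groups did not overlap. The log2 difference was 0.31 ± 0.07 (adjusted p = 0.0125, higher in 6 of 6 pairs). With experiment as a block within the day it was 0.32 ± 0.04 (adjusted p = 2.2e-06). Without NTg replicate 4 it was 0.27 (adjusted p = 0.0723) and without mSOD1 replicate 2 it was 0.29 (adjusted p = 0.0511), so either library decides the call. It also missed the threshold without experiment 2, 4 or 5 (adjusted p = 0.149, 0.0777 and 0.0614), and passed without both libraries that stood apart (0.34, adjusted p = 0.00182).

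Cdkn1a included, the day 1 estimates of mSOD1 against NTg medium leaned upward over the 30 genes, and no other gene passed. They were above 0 for 24 of the 30 genes, with a median of 0.11, while the median of all genes was 0. By role the median was 0.16 for arrest, 0.12 for apoptosis, 0.07 for the regulators and 0 for repair. An unadjusted p below 0.05 was reached by 6 genes, all of them higher, against 1058 of all genes (6.96%).

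Fas came next to Cdkn1a. Its lowest, median and highest levels were 12.2, 13.4 and 16.1 CPM in mSOD1 medium and 6.81, 10.1 and 11.9 CPM in NTg medium on day 1. The groups did not overlap, so that all 6 pairs were higher, with a log2 difference of 0.52 ± 0.14 (adjusted p = 0.0893). With experiment as a block within the day Fas passed, at 0.56 ± 0.08 (adjusted p = 2.14e-05). It also passed by DESeq2 (adjusted p = 0.0156) and without NTg replicate 1 (0.60, adjusted p = 0.0359). That block added Plk2 (0.16 ± 0.04, adjusted p = 0.013). The count became 3 of 30, all higher, against 1.24% of all genes in either direction. Ei24 also did not overlap, at 122, 130.2 and 139 CPM in mSOD1 medium and 115, 120.0 and 122 CPM in NTg medium, though its estimate was 0.13 ± 0.05 (adjusted p = 0.597). How many of all genes did not overlap was not counted.

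**Figure D4:**
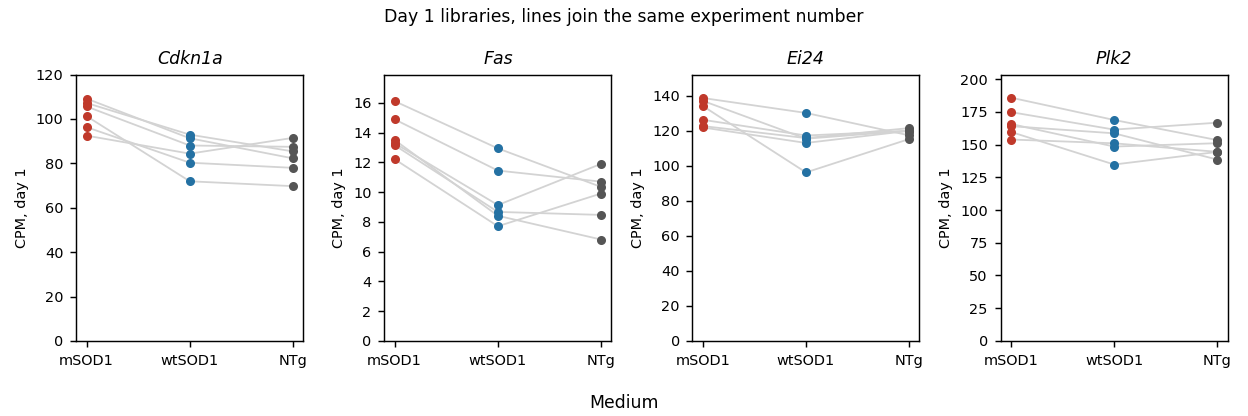
CPM of Cdkn1a, Fas, Ei24 and Plk2 in the day 1 libraries of mSOD1, wtSOD1 and NTg medium, with grey lines joining libraries of the same experiment number. For Cdkn1a, Fas and Ei24 every mSOD1 library lies above every NTg library, and for Plk2 the groups overlap.

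Cdkn1a was also higher in mSOD1 than in wtSOD1 medium on day 1, where the astrocytes of both media over-express SOD1, mutant or wild-type. This comparison uses the same mSOD1 libraries as the one with NTg medium. Its lowest, median and highest levels were 92.5, 103 and 109 CPM in mSOD1 medium and 71.9, 86.2 and 92.9 CPM in wtSOD1 medium, which overlap slightly. The log2 difference was 0.27 ± 0.07 (adjusted p = 0.0304, 6 of 6 pairs), and 1.01% of all genes passed. The call was lost without wtSOD1 replicate 4, which stood apart (0.22, adjusted p = 0.161), and without any of wtSOD1 replicates 3 and 6 and mSOD1 replicates 1, 2, 4 and 5 (adjusted p between 0.0579 and 0.102). It was also lost without both libraries that stood apart (0.22, adjusted p = 0.135) and in a fit of the compared groups alone (0.27, adjusted p = 0.0663). Leaving out any of experiments 2 to 6 also ended it (adjusted p between 0.0519 and 0.211).

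With experiment as a block within the day, 3.79% of all genes passed in mSOD1 against wtSOD1 medium, in either direction. Of the 30 genes, 6 passed, all higher. They were Cdkn1a (0.27 ± 0.04, adjusted p = 2.51e-05), Fas (0.52 ± 0.08, adjusted p = 2.51e-05) and Ccng1 (0.19 ± 0.04, adjusted p = 0.00164). The others were Ei24 (0.19 ± 0.04, adjusted p = 0.00183), Trp53inp1 (0.16 ± 0.04, adjusted p = 0.0103) and Eda2r (0.19 ± 0.05, adjusted p = 0.0225). Without the block Fas gave 0.48 ± 0.13 (adjusted p = 0.0666) and Ei24 0.19 ± 0.05 (adjusted p = 0.0739). Fas passed without wtSOD1 replicate 2 (0.55, adjusted p = 0.0273) and Ei24 without wtSOD1 replicate 5 (0.22, adjusted p = 0.0173). The unblocked estimates were above 0 for 25 of the 30 genes, with a median of 0.10, and 7 genes had an unadjusted p below 0.05, against 11.1% of all genes.

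The other lists were also compared on day 1, in mSOD1 against NTg and against wtSOD1 medium. By edgeR without a block, no cell type marker, cell cycle gene, further p53 target or upstream regulator passed in either comparison on that day. An unadjusted p below 0.05 was reached by 2 of 20 further p53 targets in each comparison and by 0 of 16 cell cycle genes and 0 of 20 upstream regulators in either. Cell type markers reached it more often against NTg medium: 3 of 7 tested oligodendrocyte lineage markers (median log2 difference -0.45, all 7 below 0), 2 of 3 microglia markers (median -1.13), 2 of 8 astrocyte markers, 1 of 7 mesenchyme, 1 of 3 pluripotency, 0 of 8 motor neuron and 0 of 8 neural progenitor markers. Without both libraries that stood apart, NTg replicate 6 among them, these counts were 1 of 7 for the oligodendrocyte lineage (median -0.15), 0 of 3 for microglia (median -0.08) and 1 of 8 for astrocytes. Against wtSOD1 medium the counts were 2 of 8 astrocyte markers, 1 each of the motor neuron, mesenchyme and neural progenitor markers and 0 of the other cell type lists. The part of these markers in the Cdkn1a result was not tested. With the block within the day the p53 target Ak1 passed in both, at 0.28 ± 0.07 against NTg and 0.29 ± 0.06 against wtSOD1 medium, and Sesn2 against wtSOD1 medium (-0.21 ± 0.05). Of the cell type markers, the block added Gja1 and Pdgfrb against NTg and Slc1a2 against wtSOD1 medium, and DESeq2 called Slc1a2 there too. The median of the cell cycle genes was -0.03 in mSOD1 against NTg and -0.04 in mSOD1 against wtSOD1 medium.

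**Figure D5:**
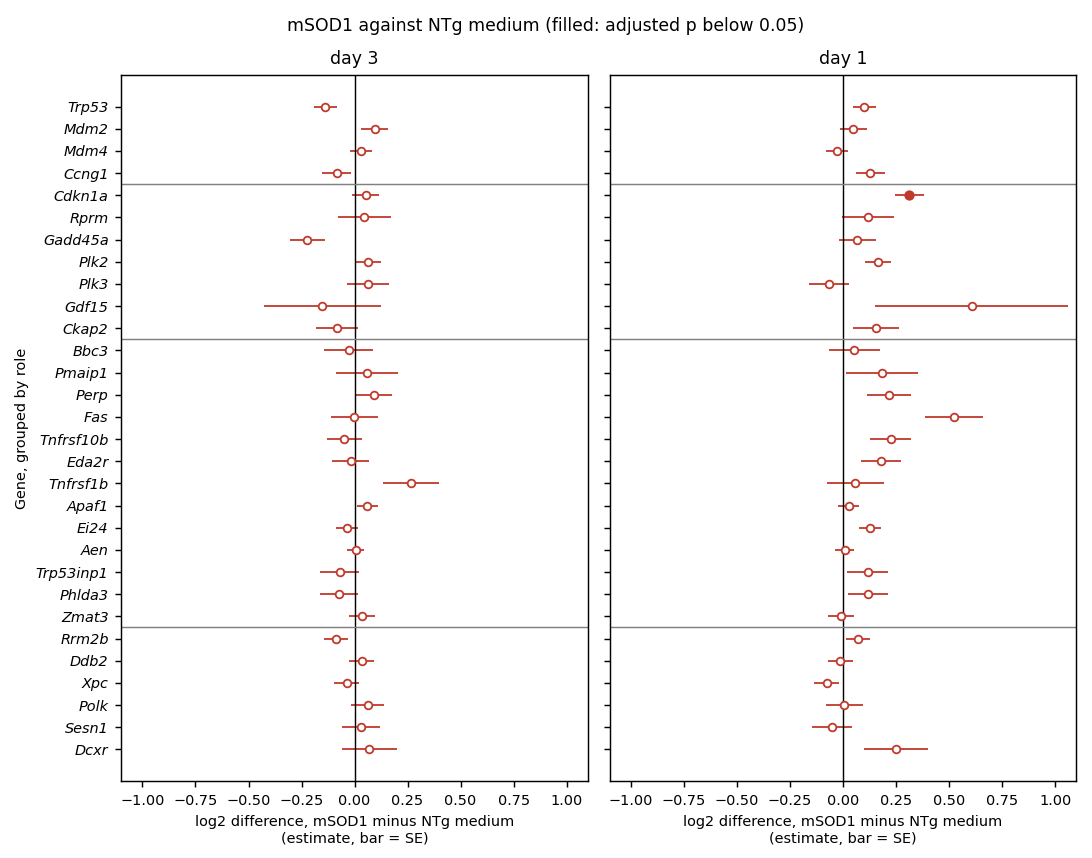
Log2 difference, mSOD1 minus NTg medium (points, with SE bars), of the 30 genes by role on day 3 (left) and day 1 (right), filled where the adjusted p is below 0.05. Cdkn1a on day 1 is the one filled point, and Fas on day 1 is 0.52.

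On day 3 no p53 gene passed between media by edgeR without a block. In mSOD1 against NTg medium 0 of 30 passed by edgeR and by DESeq2, and 2.91% of all genes did. An unadjusted p below 0.05 was reached by 19.4% of all genes and, of the 30, by Trp53 (-0.14 ± 0.05, adjusted p = 0.14) and Gadd45a (-0.22 ± 0.08, adjusted p = 0.119), each lower in 6 of 6 pairs. Both passed with experiment as a block within the day, Trp53 at -0.14 ± 0.04 (adjusted p = 0.0184) and Gadd45a at -0.22 ± 0.08 (adjusted p = 0.0475), a count of 2 where 18.1% of all genes passed. Gadd45a passed also without NTg replicate 1 (-0.26, adjusted p = 0.048). Cdkn1a gave 0.05 ± 0.06 and Fas -0.00 ± 0.11 (adjusted p = 0.707 and 0.999).

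In mSOD1 against wtSOD1 medium on day 3, 0 of 30 passed by edgeR and by DESeq2, and 3.39% of all genes did. An unadjusted p below 0.05 was reached by 18.6% of all genes and, of the 30, by Plk2 (0.17 ± 0.06), Tnfrsf1b (0.33 ± 0.13) and Ddb2 (0.12 ± 0.06). With the block within the day, Plk2 (0.17 ± 0.04, adjusted p = 0.00111), Plk3 (0.19 ± 0.06, adjusted p = 0.027) and Ckap2 (-0.12 ± 0.04, adjusted p = 0.0262) passed, 3 of 30 where 15.6% of all genes did. Other lists moved in the same comparison without the block. Aurkb, Bub1b, Ccna2 and Ccnb2, all mitotic genes, were lower (-0.42, -0.32, -0.32 and -0.32), and so was the p53 target Sesn2 (-0.24 ± 0.06, adjusted p = 0.0269). The motor neuron marker Prph was higher (0.41 ± 0.11, adjusted p = 0.0343). In mSOD1 against NTg medium the mesenchyme markers Col1a2 (-0.49 ± 0.13) and Dcn (-0.83 ± 0.21) were lower. All 16 cell cycle estimates were below 0 in both comparisons, with a median of -0.25 against NTg and -0.31 against wtSOD1 medium.

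The block within the day and DESeq2 called more of these lists on day 3. With the block, all 16 cell cycle genes were lower in mSOD1 than in NTg and than in wtSOD1 medium, where edgeR without it called 0 and 4 and DESeq2 2 and 8. The motor neuron markers Chat, Slc18a3, Slc5a7 and Prph were higher in both comparisons with the block, at 0.28 ± 0.05, 0.30 ± 0.06, 0.22 ± 0.04 and 0.22 ± 0.05 against NTg medium, and DESeq2 called Chat, Slc18a3 and Prph against wtSOD1 medium. Also lower with the block were 4 of 7 mesenchyme markers against NTg and 2 against wtSOD1 medium, 4 of 8 neural progenitor markers in each (Nes, Notch1, Sox2 and Vim), and Slc1a3 in each, with Slc1a2 against wtSOD1 medium. Of the further p53 targets 1 was higher and 3 lower in each comparison, and of the upstream regulators 2 and 2 against NTg and 1 and 1 against wtSOD1 medium. The part of the cell type markers in the values of the 30 genes was not tested.

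Medium of wtSOD1 astrocytes, set against NTg medium, gave no call among the 30 genes on day 1 or day 3, by edgeR, by DESeq2 or with either block. Of the other lists the block within the day called Col1a1, lower in wtSOD1 medium on day 3 (-0.30 ± 0.07, adjusted p = 0.029). Over all genes 0.0263% passed on day 1 and 0.0986% on day 3. An unadjusted p below 0.05 was reached by Tnfrsf1b on day 1 (0.27 ± 0.13, adjusted p = 0.861), where 5.7% of all genes reached it, and by 0 of the 30 on day 3, where 2.58% did. Cdkn1a differed by 0.04 ± 0.07 on day 1 and by -0.02 ± 0.06 on day 3.

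Did the change between days itself depend on the medium? Of the 20 genes higher on day 3 in all media, 15 had their smallest log2 difference in mSOD1 medium. The same count was not made over all genes. Of all genes, 8587 were called between days in mSOD1, 9396 in wtSOD1 and 9360 in NTg medium. The test of a difference in change between media called 0 of 30 genes for mSOD1 against NTg, mSOD1 against wtSOD1 and wtSOD1 against NTg, by edgeR and by DESeq2. Over all genes 0.23%, 0.592% and 0.0197% passed. The numbers with an unadjusted p below 0.05 were 7, 8 and 0 of 30, against 14.2%, 15.1% and 2.85% of all genes. For Fas the change in mSOD1 minus that in NTg medium was -0.52 ± 0.17 (adjusted p = 0.189), and for Cdkn1a it was -0.26 ± 0.09 (adjusted p = 0.209). Each such value equals the day 3 difference between media minus the day 1 difference. It rests on the same libraries as the comparisons of media above and is not independent of them.

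With experiment as a block within each day, 11.0% of all 15207 genes passed for mSOD1 against NTg medium, in either direction. Of all genes, 567 passed with a more negative and 1113 with a more positive change in mSOD1 medium. Among the 30 genes, 10 had a smaller change in mSOD1 than in NTg medium and 0 a larger one. They were Trp53, Ccng1, Cdkn1a, Ckap2, Fas, Tnfrsf10b, Eda2r, Ei24, Trp53inp1 and Rrm2b. The values ran from -0.57 ± 0.10 for Fas (adjusted p = 0.000211) to -0.16 ± 0.05 for Rrm2b (adjusted p = 0.0363), and Cdkn1a gave -0.27 ± 0.06 (adjusted p = 0.00128). Against wtSOD1 medium 10.8% of all genes passed, 524 with a more negative and 1125 with a more positive change. Of the 30 genes, 7 had a more negative and 2 a more positive change. Trp53, Ccng1, Cdkn1a, Ckap2, Fas, Ei24 and Trp53inp1 were the more negative ones, with Fas at -0.56 ± 0.10 (adjusted p = 0.000147). Plk3 (0.29 ± 0.08, adjusted p = 0.0126) and Tnfrsf1b (0.53 ± 0.18, adjusted p = 0.0475) were the others. The contrasts with NTg and with wtSOD1 medium share the mSOD1 libraries, and both reuse the libraries of the comparisons within each day. Without the block, Ei24 passed against wtSOD1 medium when wtSOD1 day 1 replicate 5 (-0.28, adjusted p = 0.0459) or mSOD1 day 3 replicate 2 (-0.27, adjusted p = 0.049) was left out.

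Other lists differed in their change as well, and their part in these results was not tested. All 16 cell cycle estimates were below 0, with a median of -0.24 against NTg and -0.27 against wtSOD1 medium. Of the further p53 targets 16 of 20 estimates were below 0 against NTg and 14 against wtSOD1 medium, and 7 of 8 motor neuron markers were above 0 in each. Without the block none of these passed by edgeR or DESeq2, while 5 and 6 of the 16 cell cycle genes had an unadjusted p below 0.05 by edgeR. With the block within each day, 8 cell cycle genes passed against NTg and 11 against wtSOD1 medium, all more negative, and 3 and 4 motor neuron markers, all more positive. Of the further p53 targets 1 passed as more positive and 3 as more negative against NTg medium, and 0 and 2 against wtSOD1 medium.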

How the data were processed

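RNA of 36 libraries was measured by sequencing. Tools named without roles, per the submitters' processing notes, are DESeq and TopHat 1.3.3, and the build is mm9. The read counter, annotation and strand setting were not given in the sources used here. The authors deposited whole-number read counts per gene. A further deposited column of transformed values was not used, and the time-zero control was not analysed here.

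The test on these counts was edgeR's, version 4.0.16 under R 4.3.3 (TMM scaling, low counts filtered by filterByExpr, quasi-likelihood test with robust spread, 6 group means, 30 residual degrees of freedom). P-values were adjusted by the Benjamini-Hochberg method over 15207 genes in each of 12 comparisons, at a threshold of 0.05. All adjusted p-values in the text are from this test unless another is named. CPM were computed here on TMM-scaled library sizes. The scripts were tested on simulated data. Alternatives were DESeq2 1.42.0, RLE scaling, no filter, fits of the compared groups alone, omission of libraries, and the experiment number as a block, across days or within each day. Depth, between 4386946 and 88931151 reads per library, limits low genes most.

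The labels give libraries of different media the same experiment numbers, which they name as experiments, so values with a block within the day are given beside the comparisons of media. Deviations from group means of same-numbered libraries correlated at 0.132 on day 1 (mean of 18 pairs, 11 over 0.1) and at 0.24 on day 3 (16 of 18 over 0.1), against -0.026 and -0.048 for other numbers. Across days the mean was 0.037. No pair of libraries within a group had counts that agreed within sampling noise (lowest chi-square per degree of freedom 2.27).

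All 30 members are reported. In full are those called between media or changed most between days in their role. Other lists (113 of 114 entries matched) are given by counts, with up to 4 genes per direction. Members and lists were chosen with earlier results of these data known. Exon overlaps and lengths are from GENCODE M21 (GRCm38), matched by gene, and promoters from RefSeq (GRCm38.p6), for 22 of 30 genes. No coordinates were converted.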

Additional observations from a re-analysis of the deposited data

Results flagged for a closer look

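In 10 of 180 sets of 6 libraries (30 genes in 6 groups), 1 library lay far from the other 5 by Dixon's test on a log scale. That is 5.56%, and chance gives about 1 in 20. NTg day 3 held 4 of them. There Trp53 was high in replicate 6 (75.8 CPM, others 66.5 to 68.7), Ei24 was high in replicate 2 (184.8 CPM, others 159 to 168), and replicate 1 was low for Apaf1 (86.1 CPM, others 94.2 to 96.7) and Polk (38.7 CPM, others 45 to 49). NTg day 1 replicate 6, the smallest library, was low for Trp53 (50.9 CPM, others 55.1 to 57.3) and Dcxr (6.37 CPM, others 10.5 to 12.8). In mSOD1 medium, Mdm4 was high in day 3 replicate 2 (128.1 CPM, others 113 to 117) and Ddb2 low in day 1 replicate 5 (32.5 CPM, others 36.4 to 38.5). In wtSOD1 medium, Plk2 was low in day 3 replicate 2 (101.9 CPM, others 119 to 127) and Tnfrsf1b low in day 1 replicate 1 (4.13 CPM, others 5.84 to 7.07).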

How the results depend on the processing

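No result changed direction under any of 49 other settings. Day counts stayed near the 24, 28 and 26 of 30 called in mSOD1, wtSOD1 and NTg medium: 24, 29 and 26 by DESeq2 and with the block across days, and 23 to 25, 26 to 28 and 25 to 26 with 1 library or experiment left out. The counts between media were less steady. For mSOD1 against NTg on day 1 (1 called), DESeq2 called 2, the replicate block across days 2, the block within the day 3, and leaving out libraries 0 to 2. For mSOD1 against wtSOD1 on day 1 (1 called) the same settings gave 3, 4, 6 and 0 to 2, and the compared groups alone and the omission of both libraries that stood apart gave 0. On day 3 (0 called), the block within the day gave 2 against NTg, with 0 to 1 when libraries were left out. Against wtSOD1, the block across days gave 1 and the block within the day 3. For the difference in change between days (0 called), the block across days gave 1 against NTg and 3 against wtSOD1, the block within the day 10 and 9, and leaving out libraries 0 to 1 against wtSOD1. The causes were not tested.

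Over all genes, counts of calls between media and for differences in change moved as well. DESeq2 called 693 for mSOD1 against NTg on day 3 (443 by edgeR), 783 against wtSOD1 (516), 13 for wtSOD1 against NTg on day 1 (4), and 98 and 233 for the differences in change of mSOD1 against NTg and wtSOD1 (35 and 90). The block across days gave 1511, 1418, 9, 406 and 599 for these, and 234 for mSOD1 against wtSOD1 on day 1 (153). The block within the day gave 2758, 2366, 56, 1680, 1649 and 577 in the same order, 189 for mSOD1 against NTg on day 1 (64), and 56 (15) and 19 (3) for wtSOD1 against NTg on day 3 and in change. The compared groups alone gave 35 for mSOD1 against NTg and 65 against wtSOD1 on day 1, 1 for wtSOD1 against NTg on day 1, and 320 for mSOD1 against wtSOD1 on day 3. Without the low-count filter mSOD1 against NTg on day 3 gave 288, and leaving out libraries gave 32 to 1133 there and 166 to 1346 against wtSOD1. It gave 48 to 166 for mSOD1 against wtSOD1 on day 1, 0 to 7 and 8 to 16 for wtSOD1 against NTg on day 1 and day 3, and 8 to 112, 17 to 325 and 0 to 4 for the change of mSOD1 against NTg, mSOD1 against wtSOD1 and wtSOD1 against NTg. Without both libraries that stood apart, mSOD1 against wtSOD1 on day 1 gave 95 and the change of mSOD1 against NTg 70. Scaling moved the median of all genes by less than 0.01 on the log2 scale. Few reads limit Gdf15 most.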
